A study of Mus musculus with 3 samples.

Results

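Voltage-gated sodium channels, voltage-gated calcium channels and the hyperpolarization-activated HCN channels set how a neuron fires, and their genes were followed here in nuclei of the mouse basolateral amygdala (BLA). The genes were chosen by symbol: *Scn* followed by a number and a or b, every *Cacn* symbol, and every *Hcn* symbol with a number. This choice, made with earlier results of these data known, took 44 of the 32285 genes in the tables. They comprised 10 *Scn* genes for pore-forming sodium channel subunits, 4 for sodium channel beta subunits, 10 *Cacna1* genes for pore-forming calcium channel subunits, 4 *Cacna2d*, 4 *Cacnb*, 8 *Cacng* and 4 *Hcn* genes. All 44 are annotated as protein-coding genes in GENCODE vM21.

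Single-nucleus RNA-seq (snRNA-seq) was done on the BLA of male C57BL/6NRj mice at p56, without any treatment, and the study used it to find out which cell types this region holds. Each dataset pooled both hemispheres of 4 brains of a litter. There were 3 libraries of 1 group, and the comparisons below are between classes of nuclei within libraries 2 and 3. Pooling means that no value can be traced to 1 animal, and the sources used here do not say whether libraries 2 and 3 came from different litters, so that the p-values measure only the spread between these 2 libraries, which may be technical.

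Sodium channels carry the rising phase of the action potential, and their beta subunits adjust gating and placement in the membrane. Calcium channels couple depolarization to transmitter release and gene regulation. Their alpha2delta (*Cacna2d*) and beta (*Cacnb*) subunits bring the pore to the membrane, and most members of the gamma (*Cacng*) family act as auxiliary subunits (TARPs) of AMPA-type glutamate receptors. HCN channels open on hyperpolarization and carry a current that influences resting potential and pacing. In the amygdala, glutamatergic projection neurons, local GABAergic interneurons and the *Foxp2*-expressing GABAergic neurons of the intercalated and striatal type differ in firing behaviour.

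Nuclei were sorted into classes by a few transmitter and glial genes that are no members. Glutamatergic nuclei had at least 2 UMIs of *Slc17a7* and *Slc17a6* together and 0 of *Gad1* and *Gad2*. GABAergic nuclei had the reverse, and were split into a *Foxp2*-rich class with at least 3 *Foxp2* UMIs and the other GABAergic nuclei. In both, the astrocyte transporters *Slc1a2* and *Slc1a3* made up under 0.1% of UMIs. Astrocyte nuclei had at least 0.6% of UMIs from these transporters. Library 2 held 484 glutamatergic, 153 *Foxp2*-rich, 235 other GABAergic and 532 astrocyte nuclei, and library 3 held 208, 351, 326 and 1191. Median depth was 15526 and 13115 UMIs in glutamatergic nuclei, 7046 to 7995 in both GABAergic classes, and 2745 and 3024 in astrocytes. As a class with few of these channels, 124 and 147 oligodendrocyte nuclei (median depth 2127 and 2160 UMIs) were kept for comparison of levels without a test. Levels are CPM, a gene's share of the summed UMIs of a class in a library, and values are given as library 2 and library 3. Libraries 2 and 3 shared 7 cell barcodes, of 3792 and 4588.

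Summed lists of markers that the gates did not use were highest in the classes they were named for, but were not confined to them. The glutamatergic list (7 genes) summed to 1714 and 1210 CPM in glutamatergic nuclei and to 401 to 619 CPM in the GABAergic classes. Its largest members in glutamatergic nuclei were *Camk2a* (952 and 638 CPM) and *Sv2b* (650 and 485 CPM). The GABAergic list (6 genes) summed to 8301 to 9804 CPM in the GABAergic classes and to 267 and 464 CPM in glutamatergic nuclei. It was also at 1187 and 1174 CPM in astrocytes and 4571 and 3317 CPM in oligodendrocytes. Most of the oligodendrocyte sum was *Erbb4* (4427 and 3251 CPM). The striatal and intercalated list (7 genes) reached 3217 and 3607 CPM in *Foxp2*-rich nuclei, against 373 and 456 CPM in other GABAergic nuclei and 714 and 835 CPM in astrocytes. *Meis2* alone was at 2471 and 2723 CPM in *Foxp2*-rich nuclei, and *Rarb*, *Tshz1*, *Drd1* and *Penk* were also higher there. *Adora2a* went the other way (2.08 and 2.26 CPM against 4.70 and 4.55 CPM). The values of *Ppp1r1b* overlapped (1.39 and 3.87 CPM against 2.35 and 1.40 CPM). The interneuron list (9 genes) was at 8558 and 9739 CPM in other GABAergic nuclei but also at 3291 and 2836 CPM in the *Foxp2*-rich class. Most of the latter was *Adarb2*, at 2907 and 2318 CPM there and at 5059 and 5994 CPM in other GABAergic nuclei. Astrocyte markers (9 genes) summed to 6452 and 7722 CPM in astrocytes and to 109 to 358 CPM in the neuronal classes. Of the astrocyte nuclei, 11.5% and 8.9% held a UMI of a transmitter gene.

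The start regions of 3 members with calls between the neuronal classes are shown here as reference sequence: *Cacng5* and *Cacna2d3*, which were higher in GABAergic nuclei, and *Scn7a*, which was higher in glutamatergic nuclei. The letters are the bases upstream of the RefSeq start site (GRCm38.p6), read along the minus strand of chr11:107915056-107915305, chr14:29721865-29722114 and chr2:66784915-66785160, without any base inside an annotated exon. Capitals mark the GC box GGGCGG on either strand, the recognition letters of Sp1-type factors.
Cacng5: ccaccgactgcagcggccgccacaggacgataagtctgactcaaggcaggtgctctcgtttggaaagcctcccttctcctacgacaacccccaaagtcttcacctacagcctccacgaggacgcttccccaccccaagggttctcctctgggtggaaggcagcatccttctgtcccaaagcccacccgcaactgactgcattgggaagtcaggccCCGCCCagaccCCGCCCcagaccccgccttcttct
Cacna2d3: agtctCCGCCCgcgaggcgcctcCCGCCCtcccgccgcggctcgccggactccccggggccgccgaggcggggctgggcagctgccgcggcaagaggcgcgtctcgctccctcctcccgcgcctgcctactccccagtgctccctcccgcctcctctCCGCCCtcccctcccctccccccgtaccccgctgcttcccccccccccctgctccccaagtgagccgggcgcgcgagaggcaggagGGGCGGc
Scn7a: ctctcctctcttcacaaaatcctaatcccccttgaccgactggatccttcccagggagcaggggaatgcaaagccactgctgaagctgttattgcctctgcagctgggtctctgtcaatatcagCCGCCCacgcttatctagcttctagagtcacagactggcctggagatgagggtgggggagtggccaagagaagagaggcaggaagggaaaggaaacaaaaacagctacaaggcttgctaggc
GC content was 62% for *Cacng5*, 80% for *Cacna2d3* and 53.7% for *Scn7a*, against a median of 52.4% over 32851 RefSeq windows of 250 upstream bases. The GC box occurred 2 times, 4 times and 1 time, and 32.7% of all windows and 17 of 43 member windows (39.5%) held it. The letters CAGATG (an E-box of proneural factors), TAATTA (a homeobox core) and TGTTTA (a forkhead core) were absent from all 3 windows on both strands, and 14.4%, 4.84% and 12% of all windows held them. These matches describe letters only. Windows were found for 32 of the 44 members.

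The members took a larger share of UMIs in every neuronal class than in the glial classes. All members together summed to 9495 and 9465 CPM in glutamatergic, 10265 and 10626 CPM in *Foxp2*-rich, and 9014 and 9314 CPM in other GABAergic nuclei. The sum was 1795 and 1556 CPM in astrocytes and 1773 and 1790 CPM in oligodendrocytes. The *Foxp2*-rich values were the highest of the neuronal classes, and the map of levels gives every member.

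Since most UMIs of nuclear RNA can come from introns and genes differ widely in length (10.5 to 817 kb), levels were compared between genes only per kb of annotated span. Whether levels scale with span was not tested, so the order of genes depends on this division. In glutamatergic nuclei, *Scn2a* was at 2.64, *Scn8a* at 2.15, *Scn1a* at 1.31 and *Scn3a* at 1.11 CPM per kb, and no other pore-forming sodium channel gene was above 0.23. In other GABAergic nuclei *Scn2a* (2.35) and *Scn1a* (2.15 CPM per kb) were nearly level. Of the pore-forming calcium channel genes, the P/Q-type *Cacna1a* led in glutamatergic (2.74) and other GABAergic nuclei (2.88 CPM per kb) and also in the *Foxp2*-rich class (2.18), where the L-type *Cacna1c* (2.09) and the R-type *Cacna1e* (2.08) lay close to it. *Cacng8*, a TARP, had the highest value of any member in all 3 neuronal classes (3.50 to 3.96 CPM per kb).

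Of the 44 members, 35 passed the filter on low counts, and the tests below cover these. The other 9 were *Cacna1f*, *Cacna1s*, *Cacng1*, *Cacng6*, *Hcn4*, *Scn4a*, *Scn4b*, *Scn10a* and *Scn11a*, which had between 0 and 59 UMIs over the 8 sums of 4 classes in 2 libraries. *Scn4a*, the channel of skeletal muscle, had 0 UMIs in every class, which allows up to 0.357 CPM in the largest sum (3 UMIs; counting error only).

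The first comparison asked which members distinguish glutamatergic from GABAergic nuclei. Auxiliary subunits made up 9 of the 14 calls: *Cacna2d2*, *Cacna2d3* and 4 of 6 tested *Cacng* genes were lower in glutamatergic nuclei, and *Cacna2d1* was higher. By family, 3 of 4 tested *Cacna2d*, 5 of 6 *Cacng*, 1 of 4 *Cacnb* and 0 of 3 *Scn* beta subunit genes were called. Among all genes tested, 17.6% passed the threshold in this comparison (9.81% higher and 7.75% lower in glutamatergic nuclei; edgeR adjusted p under 0.05). Of the 35 tested members, 14 passed (40%), 6 higher and 8 lower. The median log2 fold change was 0.15 over the members and 0.04 over all genes tested. A class is a mixture of cell types, and a larger share of one type or more RNA of the gene per nucleus cannot be told apart in these sums.

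The family of alpha2delta subunits, the targets of gabapentin-type drugs in the case of *Cacna2d1* and *Cacna2d2*, was divided between the classes. *Cacna2d2* (chr9:107399612-107529343, plus strand) was at 4.29 and 5.99 CPM in glutamatergic nuclei. It was at 93.6 and 75.5 CPM in *Foxp2*-rich and at 115 and 78.1 CPM in other GABAergic nuclei. Every GABAergic value lay above both glutamatergic values (log2 fold change glutamatergic minus GABAergic -4.14 ± 0.23 SE, edgeR adjusted p = 3.56e-09). After each nucleus was thinned to 1500 UMIs, 0.418% and 2.43% of glutamatergic nuclei held a *Cacna2d2* UMI (5.79% and 7.21% without thinning), against 9.60% to 14.5% in other GABAergic nuclei (38.3% to 46.4%) and 2.44% and 1.64% in oligodendrocytes (2.42% and 1.36%). In library 2 the thinned glutamatergic share was below the oligodendrocyte share, and in library 3 it was above it. The thinned shares come from 478 and 206 glutamatergic and 82 and 122 oligodendrocyte nuclei, so a few nuclei set this order.

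*Cacna2d3* went in the same direction. It was at 571 and 571 CPM in glutamatergic, 1482 and 1737 CPM in *Foxp2*-rich and 1075 and 1113 CPM in other GABAergic nuclei, with no overlap (-1.15 ± 0.23, edgeR adjusted p = 0.00171). *Cacna2d1* showed the opposite order, with 1009 and 1102 CPM in glutamatergic nuclei, 774 and 767 CPM in *Foxp2*-rich nuclei and 368 and 655 CPM in other GABAergic nuclei (0.81 ± 0.25, edgeR adjusted p = 0.03). The 2 libraries differed widely for *Cacna2d1* in other GABAergic nuclei, yet both stayed below the other classes. *Cacna2d4* was close to the floor in all neurons, at 0.315 to 2.45 CPM.

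TARP genes of the gamma family made up the second group. *Cacng5*, a type II TARP, was at 3.10 and 6.31 CPM in glutamatergic nuclei, 70.0 and 57.1 CPM in *Foxp2*-rich nuclei and 20.7 and 12.3 CPM in other GABAergic nuclei. The 3 classes did not overlap (-2.86 ± 0.31, edgeR adjusted p = 4.66e-06). *Cacng2* (stargazin) was at 68.1 and 67.8 CPM in glutamatergic nuclei, 119 and 110 CPM in *Foxp2*-rich nuclei and 166 and 158 CPM in other GABAergic nuclei (-0.93 ± 0.16, edgeR adjusted p = 0.00034). The call for *Cacng2* was lost among nuclei of 3000 to 12000 UMIs and with library 1 added, and was kept after thinning. The depth window left 158 and 80 glutamatergic nuclei in libraries 2 and 3, of 484 and 208. Class depths inside it were not compared, and why the call was lost there was not tested. *Cacng3* was the only tested TARP gene that was higher in glutamatergic nuclei (193 and 199 CPM, against 114 to 177 CPM in the GABAergic classes; 0.50 ± 0.16, edgeR adjusted p = 0.041), and 6 of 10 alternative settings ended that call. *Cacng4* and *Cacng7* were also called, both lower in glutamatergic nuclei (log2 fold change -1.03 and -0.55), and 4 of 10 alternative settings ended the call for *Cacng7* and 1 of 10 that for *Cacng4*. These 2 genes are named after their values were seen, since the rule for naming did not reach them.

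**Figure D1:**
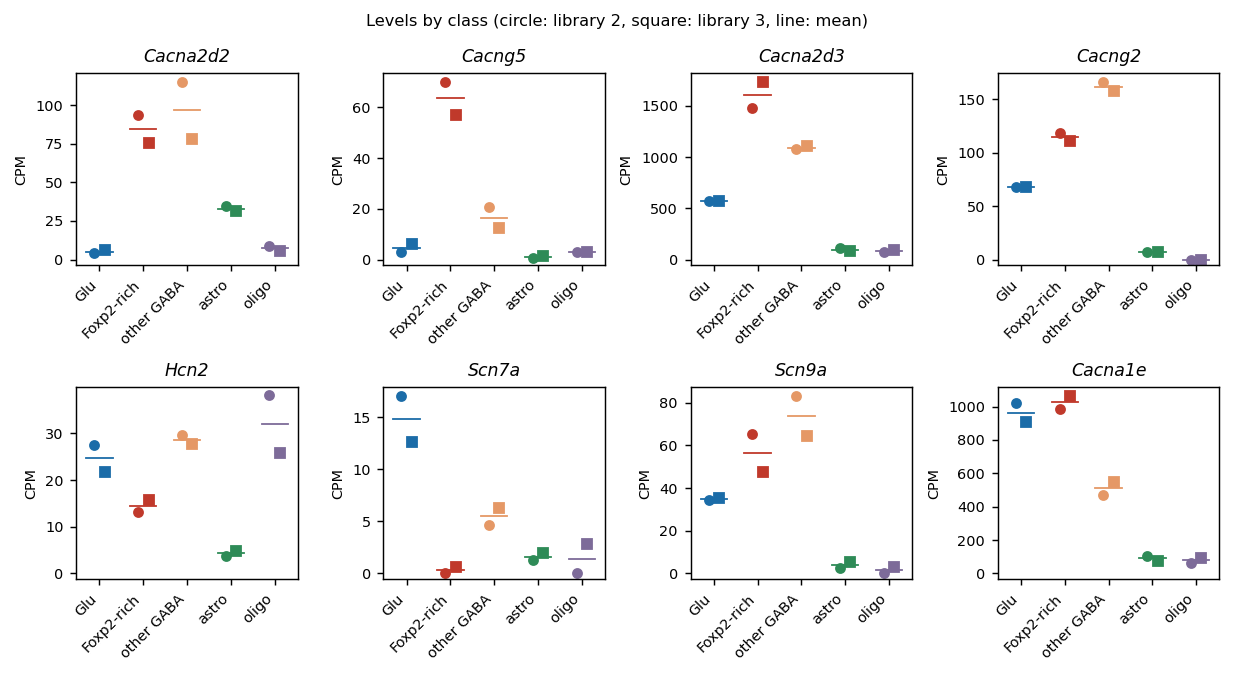
CPM of 8 members in each class of nuclei, with library 2 as a circle, library 3 as a square and their mean as a line, on linear axes. *Cacna2d2* is at 4.29 and 5.99 CPM in glutamatergic nuclei and above 75 CPM in both GABAergic classes, *Cacng5* is highest in *Foxp2*-rich nuclei, and *Scn7a* is highest in glutamatergic nuclei.

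Among the pore-forming sodium channel genes, the broadly expressed *Scn1a*, *Scn2a* and *Scn3a* were not called between glutamatergic and GABAergic nuclei, and *Scn7a*, *Scn8a* and *Scn9a* were. *Scn2a* was at 385 and 388 CPM and *Scn3a* at 124 and 122 CPM in glutamatergic nuclei. *Scn8a*, which encodes the channel of the axon initial segment and nodes, was at 389 and 368 CPM in glutamatergic, 234 and 260 CPM in *Foxp2*-rich and 298 and 282 CPM in other GABAergic nuclei (0.57 ± 0.17, edgeR adjusted p = 0.0303). *Scn9a*, best known from pain-sensing neurons, was at 34.5 and 35.3 CPM in glutamatergic, 65.2 and 47.8 CPM in *Foxp2*-rich and 83.2 and 64.4 CPM in other GABAergic nuclei (-0.80 ± 0.18, edgeR adjusted p = 0.00358). Both genes separated the glutamatergic values from all GABAergic values. The *Scn8a* call was lost when the GABAergic nuclei were summed as 1 class, and the *Scn9a* call among nuclei of 3000 to 12000 UMIs. *Scn1a*, the channel most linked to interneurons, was at 222 and 224 CPM in glutamatergic, 250 and 258 CPM in *Foxp2*-rich and 365 and 368 CPM in other GABAergic nuclei. These values do not overlap, but the call depended on the fit (-0.38 ± 0.17, edgeR adjusted p = 0.167, and 0.0107 with the library as a block).

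*Scn7a* (chr2:66673425-66784914, minus strand), an atypical family member known as a sodium-sensing channel, was scarce but mostly glutamatergic. It was at 17.0 and 12.6 CPM in glutamatergic nuclei, 4.70 and 6.30 CPM in other GABAergic nuclei, and 0 and 0.646 CPM in *Foxp2*-rich nuclei. The glutamatergic values were above all others (edgeR adjusted p = 2.07e-05), and the GABAergic classes also differed (edgeR adjusted p = 0.00634, lost with library 1 added). The *Foxp2*-rich class rested on 2 UMIs, so fitted fold changes depend on the fit's small added count, and ratios of the pooled sums are given with exact 95% counting intervals instead. Glutamatergic nuclei (183 UMIs) were 35.9-fold above *Foxp2*-rich nuclei (9.80 to 299), and other GABAergic nuclei (28 UMIs) were 12.8-fold above them (3.22 to 110). UMIs are counted once per molecule, and these intervals cover counting error only.

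*Scn7a* was uneven within the glutamatergic class. In nuclei with at least 2 UMIs of *Rorb*, a gene of the study's glutamatergic marker panel that also stood on the astrocyte list here (52 and 30 nuclei), it was at 55.6 and 33.9 CPM. In nuclei with at least 2 UMIs of *Rspo2* (96 and 28 nuclei) it was at 10.9 and 6.25 CPM. The *Rorb* nuclei held 72 of the 183 *Scn7a* UMIs (39.3%) of the class. These finer gates were chosen after the values were seen, and no test was made on them.

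Of 8 tested pore-forming calcium channel genes, 1 was called between the 2 transmitter classes (12.5%, against 17.6% of all genes). A missing call does not show a like level. The called gene was the T-type *Cacna1i*, at 56.4 and 44.1 CPM in glutamatergic, 26.3 and 24.9 CPM in *Foxp2*-rich and 56.9 and 36.4 CPM in other GABAergic nuclei (0.62 ± 0.17, edgeR adjusted p = 0.0185). Its glutamatergic values overlapped those of other GABAergic nuclei, and 5 of 10 alternative settings ended the call. *Cacna1c* was at 1333 and 1435 CPM in glutamatergic nuclei, above 1220 and 1326 CPM in *Foxp2*-rich and 1003 and 1052 CPM in other GABAergic nuclei (0.35 ± 0.21, edgeR adjusted p = 0.326, and 0.0334 with the library as a block).

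*Cacna1e* was likewise called only with the block (0.48 ± 0.21, edgeR adjusted p = 0.141, and 0.0104 with the block). Its glutamatergic values (1019 and 908 CPM) overlapped those of *Foxp2*-rich nuclei (986 and 1066 CPM), and only other GABAergic nuclei were lower (473 and 546 CPM).

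The remaining *Cacna1* genes were not called. *Cacna1a* was at 726 and 656 CPM in glutamatergic, 578 and 522 CPM in *Foxp2*-rich and 776 and 675 CPM in other GABAergic nuclei. The N-type *Cacna1b* was at 346 and 350 CPM, 266 and 266 CPM, and 389 and 365 CPM in the same order. The L-type *Cacna1d* was at 459 and 451 CPM, 530 and 517 CPM, and 537 and 503 CPM. For *Cacna1a* and *Cacna1b* the *Foxp2*-rich values were the lowest, and for *Cacna1d* the glutamatergic values were. The T-type *Cacna1g* ranged from 41.3 to 74.9 CPM over the 3 classes, with overlap of every pair except the glutamatergic and the other GABAergic values.

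Of the 4 *Cacnb* genes, *Cacnb3* was called (23.2 and 14.2 CPM in glutamatergic, 18.7 and 9.04 CPM in *Foxp2*-rich and 12.7 and 5.60 CPM in other GABAergic nuclei; 0.91 ± 0.29, edgeR adjusted p = 0.0418), and the order of the classes was the same within each library, although values overlapped across libraries. With the library as a block its adjusted p by edgeR was 0.00684, and 5 of 10 alternative settings ended the call. *Cacnb2* was at 758 and 807 CPM in glutamatergic nuclei and at 659 to 840 CPM in the GABAergic classes. *Cacnb4* was at 564 and 468 CPM in glutamatergic nuclei and at 580 to 816 CPM in the GABAergic classes, without overlap and without a call (-0.34 ± 0.20, edgeR adjusted p = 0.304). No beta subunit gene of sodium channels was called. *Scn2b* was at 8.81 and 8.83 CPM in glutamatergic nuclei and 9.45 to 15.9 CPM in the GABAergic classes, and *Scn3b* was at 37.7 and 35.6 CPM and 29.8 to 52.0 CPM.

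Neither *Hcn2* nor *Hcn3* was called between glutamatergic and GABAergic nuclei. *Hcn2*, a subunit found widely in the brain, was at 27.5 and 21.8 CPM in glutamatergic, 13.2 and 15.8 CPM in *Foxp2*-rich and 29.6 and 27.7 CPM in other GABAergic nuclei (0.32 ± 0.20, edgeR adjusted p = 0.346). Its *Foxp2*-rich values were the lowest of the neuronal classes. *Hcn4*, the cardiac pacemaker subunit, lay between 1.05 and 4.52 CPM in the neuronal sums. *Hcn3* was lowest in glutamatergic nuclei (3.69 and 2.52 CPM), followed by *Foxp2*-rich (5.55 and 4.20 CPM) and other GABAergic nuclei (5.64 and 7.70 CPM), without overlap and without a call, from 8 to 31 UMIs a sum.

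With the library as a block, 17 members passed instead of 14, and 24.4% of all genes did. *Cacna1c*, *Cacna1e* and *Scn1a* were the members added. With library 1 added, whose sums hold 1 to 42 nuclei, only *Cacna2d2*, *Cacng5* and *Scn7a* were called.

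**Figure D2:**
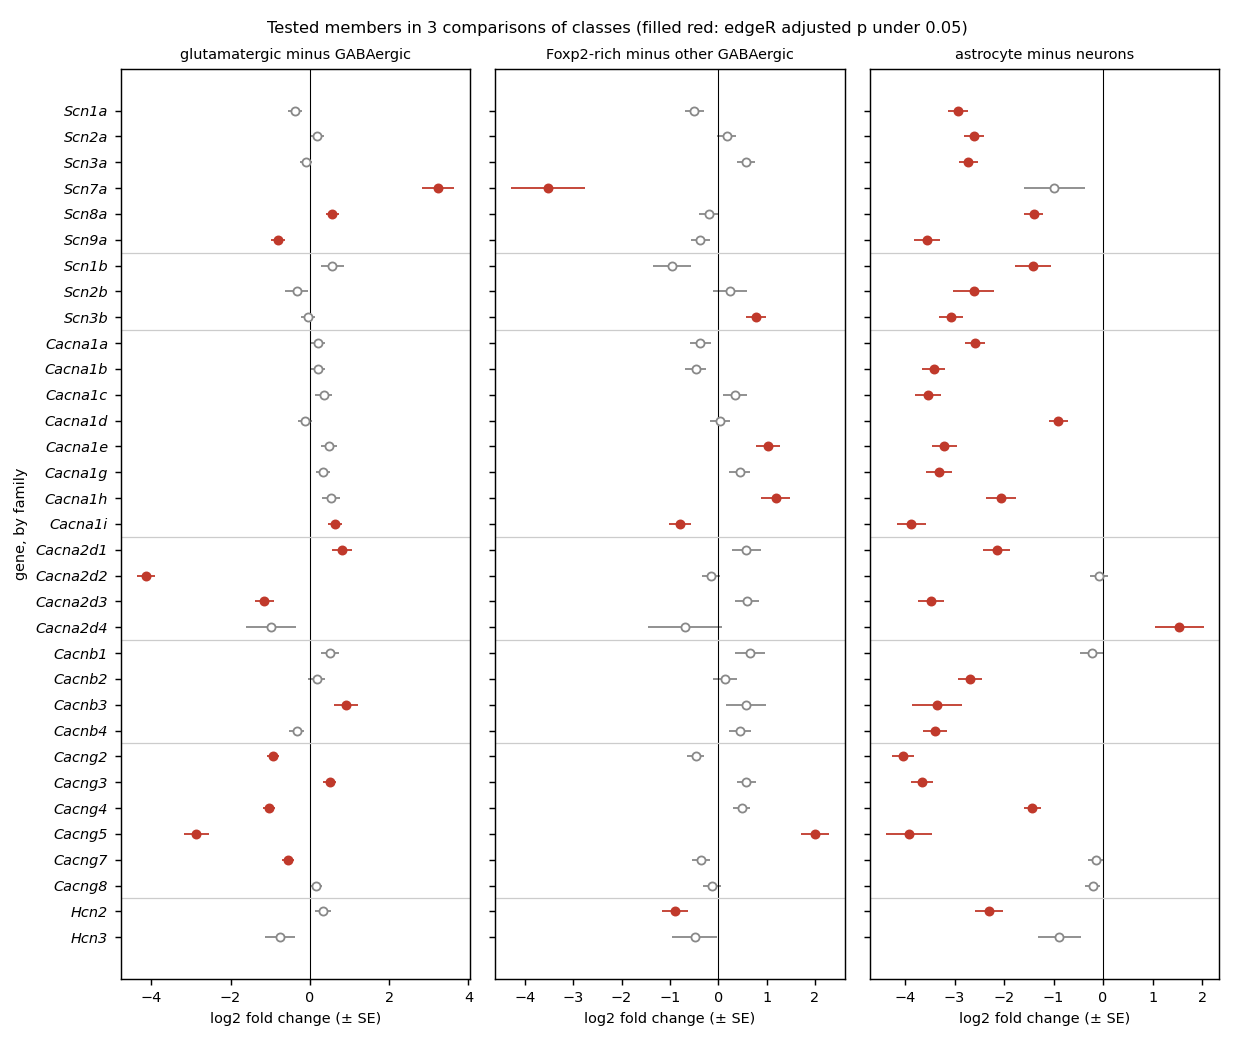
Log2 fold change with its standard error for 33 of the tested members, by family, in the 3 comparisons. Filled red points have an edgeR adjusted p under 0.05 and open grey points do not: 13 in the first comparison, 7 in the second and 27 in the third are filled, and *Cacna2d4* is the only filled point to the right of 0 in the third.

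The second comparison was between *Foxp2*-rich and other GABAergic nuclei. Members such as *Cacng5*, *Cacna1h*, *Cacna1e* and *Scn3b* were higher in *Foxp2*-rich nuclei, and *Scn7a*, *Hcn2* and *Cacna1i* were lower. In all, 8 of 35 members were called (22.9%), 5 higher and 3 lower, where 9.1% of all genes passed (4.47% higher and 4.63% lower). The median log2 fold change was 0.13 over the members and -0.02 over all genes. With the library as a block, 17 members passed, and 15.3% of all genes did. The added ones were *Scn1a*, *Scn3a*, *Cacna1b*, *Cacna2d1*, *Cacna2d3*, *Cacnb4*, *Cacng2*, *Cacng3* and *Cacng4*. With library 1 added, 2 members were called, *Cacng5* among them.

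Finer gates, chosen after the values were seen and without a test, showed that *Scn9a* and *Cacna2d2* were uneven within the classes. Among *Foxp2*-rich nuclei, *Scn9a* was at 116 and 54.9 CPM in those with at least 2 UMIs of the retinoid receptor gene *Rarb* (59 and 160 nuclei) and at 19.1 and 41.3 CPM in those without one (73 and 151 nuclei). Among glutamatergic nuclei, the few without a UMI of *Slc17a7*, which were gated by *Slc17a6* alone (28 and 21 nuclei), had 109 and 72.9 CPM of *Scn9a*, and those with at least 2 *Slc17a7* UMIs (431 and 160 nuclei) had 30.3 and 34.8 CPM. Both libraries had the same direction in each split. *Cacna2d2* was at 28.6 and 30.7 CPM in the glutamatergic nuclei without *Slc17a7*, which rests on 10 and 8 UMIs, and at 3.23 and 3.48 CPM in those with at least 2.

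*Scn10a* (chr9:119608456-119719322, minus strand) did not pass the filter on low counts and is named after its values were seen. *Scn10a*, a channel gene of sensory neurons, had 19 UMIs in *Foxp2*-rich nuclei (6.24 and 3.23 CPM), 2 in glutamatergic nuclei (0.119 and 0.315 CPM) and 0 in other GABAergic nuclei. With 3 UMIs over both libraries put in place of the 0 in other GABAergic nuclei, the *Foxp2*-rich level was 6.95-fold higher. Counting error in the 19 UMIs is left out of this ratio, so it is not a lower limit. Of the 19 UMIs, 18 came from nuclei without *Rarb*. *Scn11a*, which lies 34.4 kb away on the same strand, had 13 UMIs over the 4 classes.

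**Figure D3:**
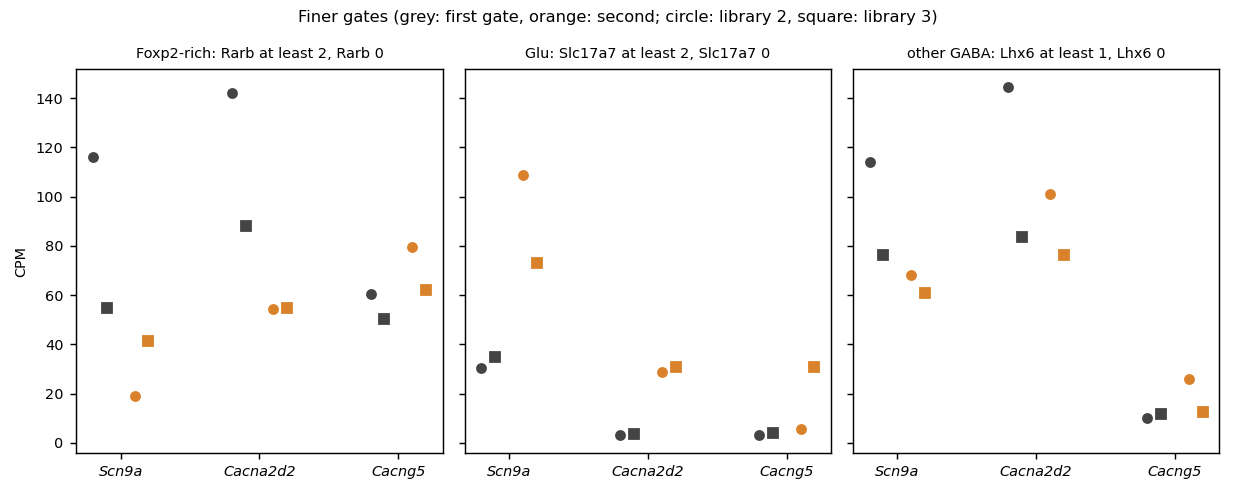
CPM of *Scn9a*, *Cacna2d2* and *Cacng5* in nuclei of finer gates, grey for the first gate named in a panel's title and orange for the second, with library 2 as a circle and library 3 as a square. *Scn9a* is higher in glutamatergic nuclei without *Slc17a7* (109 and 72.9 CPM), and *Cacna2d2* is higher in *Foxp2*-rich nuclei with at least 2 *Rarb* UMIs (142 and 88.1 CPM).

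*Cacng5* was at 70.0 and 57.1 CPM in *Foxp2*-rich and 20.7 and 12.3 CPM in other GABAergic nuclei (2.00 ± 0.29, edgeR adjusted p = 1.94e-04). It differed little with *Rarb* (60.6 and 50.5 CPM with at least 2 UMIs, 79.4 and 62.0 CPM without). On its chromosome *Cacng4* lies 80.0 kb away on the same strand, with 115 and 80.4 CPM in *Foxp2*-rich and 82.2 and 59.2 CPM in other GABAergic nuclei. *Cacng5* was called in this comparison under all 10 alternative settings (adjusted p from 2.22e-11 to 0.047).

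Of the calcium channel pores, *Cacna1e* was at 986 and 1066 CPM in *Foxp2*-rich and 473 and 546 CPM in other GABAergic nuclei (1.03 ± 0.25, edgeR adjusted p = 0.0121), and its glutamatergic level (1019 and 908 CPM) was like that of *Foxp2*-rich nuclei. *Cacna1h*, a T-type gene, was at 29.1 and 23.6 CPM in *Foxp2*-rich, 10.3 and 12.6 CPM in other GABAergic and 24.8 and 23.3 CPM in glutamatergic nuclei (1.18 ± 0.30, edgeR adjusted p = 0.0157). *Cacna1i*, another T-type gene, went the other way (26.3 and 24.9 CPM against 56.9 and 36.4 CPM; -0.80 ± 0.23, edgeR adjusted p = 0.0355). The third T-type gene, *Cacna1g*, was not called (0.44 ± 0.22, edgeR adjusted p = 0.285). The *Cacna1h* call was lost after thinning and with DESeq2, and that of *Cacna1i* under 6 of 10 alternative settings.

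*Scn3b*, a beta subunit gene, was at 52.0 and 50.7 CPM in *Foxp2*-rich and 31.5 and 29.8 CPM in other GABAergic nuclei (0.78 ± 0.21, edgeR adjusted p = 0.0212), a call lost with DESeq2, after thinning and with library 1 added. *Scn3a* moved alongside, with 173 and 163 CPM against 115 and 113 CPM, and was called only with the block (0.58 ± 0.19, edgeR adjusted p = 0.0632, and 0.00202 with the block). *Scn1a* lay lower in *Foxp2*-rich nuclei (250 and 258 CPM against 365 and 368 CPM; edgeR adjusted p = 0.156, and 0.00672 with the block). *Scn2a* was at 399 and 364 CPM against 351 and 338 CPM and was not called in either fit.

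*Hcn2* was at 13.2 and 15.8 CPM in *Foxp2*-rich nuclei and at 29.6 and 27.7 CPM in other GABAergic nuclei (-0.90 ± 0.26, edgeR adjusted p = 0.0411), and 4 of 10 alternative settings ended the call.

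*Cacna2d2* did not differ detectably between the GABAergic classes (-0.16 ± 0.19, edgeR adjusted p = 0.735). Inside them it was at 142 and 88.1 CPM in *Foxp2*-rich nuclei with at least 2 *Rarb* UMIs and at 54.4 and 54.9 CPM in those without *Rarb*. By *Lhx6*, *Cacna2d1* was at 282 and 182 CPM with it (57 and 67 nuclei) and 410 and 804 CPM without it (178 and 259 nuclei). In other GABAergic nuclei with at least 5 UMIs of *Adarb2* (109 and 137 nuclei), *Cacna2d1* was at 708 and 1191 CPM. *Adarb2* is a gene of interneurons of the caudal ganglionic eminence, but it was also at 2907 and 2318 CPM in *Foxp2*-rich nuclei. These splits, too, were made after the values were seen.

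The third comparison set astrocytes against the mean of the 3 neuronal classes on the log scale. Percentages of a neuronal mean below are instead of the plain mean CPM of these classes. The measures can differ where the neuronal classes differ. Of the 35 tested members, 29 passed, 28 lower in astrocytes and 1 higher, in a comparison where 54.3% of all genes passed (27.6% higher and 26.7% lower). The median log2 fold change was -2.69 over the members and 0.01 over all genes tested. All 8 tested *Cacna1* genes, all 3 tested beta subunit genes of sodium channels and 6 of 7 tested pore-forming sodium channel genes fell. With the library as a block 29 members passed, where 59.7% of all genes did, and the count was 23 to 30 over the alternative settings.

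Large declines were those of *Cacng2* (6.88 and 6.61 CPM in astrocytes; -4.04 ± 0.22, edgeR adjusted p = 9.97e-11), *Cacng5* (0.626 and 1.22 CPM; -3.92 ± 0.47) and *Cacna1i* (4.38 and 1.96 CPM; -3.87 ± 0.29). *Cacng3* (16.9 and 11.0 CPM), *Scn9a* (2.50 and 5.39 CPM) and *Cacna1c* (121 and 100 CPM) followed. The astrocyte sum of a gene was at a median of 15.1% of its neuronal mean over the 35 genes, and the oligodendrocyte sum at 9.88%. Free RNA can leave neuronal transcripts in droplets of any class. It was not measured, and its part in the low glial values was not tested.

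Several members stood well above the median share of 15.1% in astrocytes. *Cacna1d* was at 272 and 283 CPM in astrocytes, 53.4% and 57.7% of the neuronal mean, against 38.2 and 60.0 CPM in oligodendrocytes. It was still called lower than in neurons (-0.90 ± 0.18, edgeR adjusted p = 4.78e-04). *Cacng8* was at 82.6 and 86.7 CPM in astrocytes, which is 85% and 93.5% of the neuronal mean, and at 8.81 and 2.86 CPM in oligodendrocytes (astrocyte minus neurons -0.21 ± 0.15, edgeR adjusted p = 0.252). After thinning, 13.4% and 12.2% of astrocytes, 9.97% to 15.5% of neuronal nuclei and 0% and 0.82% of oligodendrocytes held a *Cacng8* UMI (19.9% and 23.3%, 48.1% to 70.7%, and 2.42% and 0.68% without thinning). *Cacng8* was named after its values were seen.

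*Cacng7*, the neighbour of *Cacng8* on the same strand 22.5 kb away, was at 54.4 and 45.8 CPM in astrocytes and at 49.9 and 48.6 CPM in oligodendrocytes, within the neuronal range of 36.9 to 78.9 CPM. *Cacnb1*, also named afterwards, was at 21.3 and 13.0 CPM in astrocytes and 10.2 to 27.3 CPM in neurons. *Cacna2d2* was at 34.4 and 31.6 CPM in astrocytes, above both glutamatergic values and below all GABAergic ones (-0.09 ± 0.19, edgeR adjusted p = 0.724). Its astrocyte level was 48.5% and 59.4% of the plain neuronal mean CPM, so the small fold change holds for the log-scale mean only. With gates that demanded under 2 UMIs of each of the oligodendrocyte, precursor and microglia gene sets and 0 transmitter UMIs in astrocytes, and that left out the deepest 5% of nuclei of each class, *Cacng8* stood at -0.31, *Cacng7* at -0.02, *Cacna2d2* at -0.13 and *Cacnb1* at -0.23 on the log2 scale, and none of them was called. *Hcn3* and *Scn7a* were the remaining members without a call, at 1.88 and 2.94 CPM and at 1.25 and 1.96 CPM in astrocytes.

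*Cacna2d4* was the only member called higher in astrocytes (1.54 ± 0.49, edgeR adjusted p = 0.0132). It was at 4.38 and 3.92 CPM there, from 7 and 16 UMIs, against 0.315 to 2.45 CPM in neurons. Of 9 alternative settings only 5 fitted this gene, and 4 of these kept the call, which was lost with DESeq2. Thinning and the stricter gates were not among the 5, so the call was not tested under them. The level of *Cacna2d4* was highest in oligodendrocytes, at 49.9 and 14.3 CPM, but from only 17 and 5 UMIs. The part of oligodendrocyte RNA in its astrocyte level was not tested. *Cacnb4* (484 and 360 CPM) and *Cacna2d1* (329 and 420 CPM) were also well represented in oligodendrocytes. *Hcn2* was at 38.2 and 25.7 CPM there, above the *Foxp2*-rich values, but from only 13 and 9 UMIs. By contrast, *Cacng2*, *Cacna1g*, *Cacna1h*, *Cacna1i*, *Hcn3* and *Scn2b* had 0 UMIs in oligodendrocytes of both libraries, which allows up to 8.81 and 8.58 CPM (3 UMIs; counting error only). Every neuronal value of *Hcn3* lies under these limits and those of *Scn2b* in glutamatergic nuclei (8.81 and 8.83 CPM) lie at them, so that no difference from oligodendrocytes was detectable there within a library. A limit over both libraries together would be lower and was not computed.

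**Figure D4:**
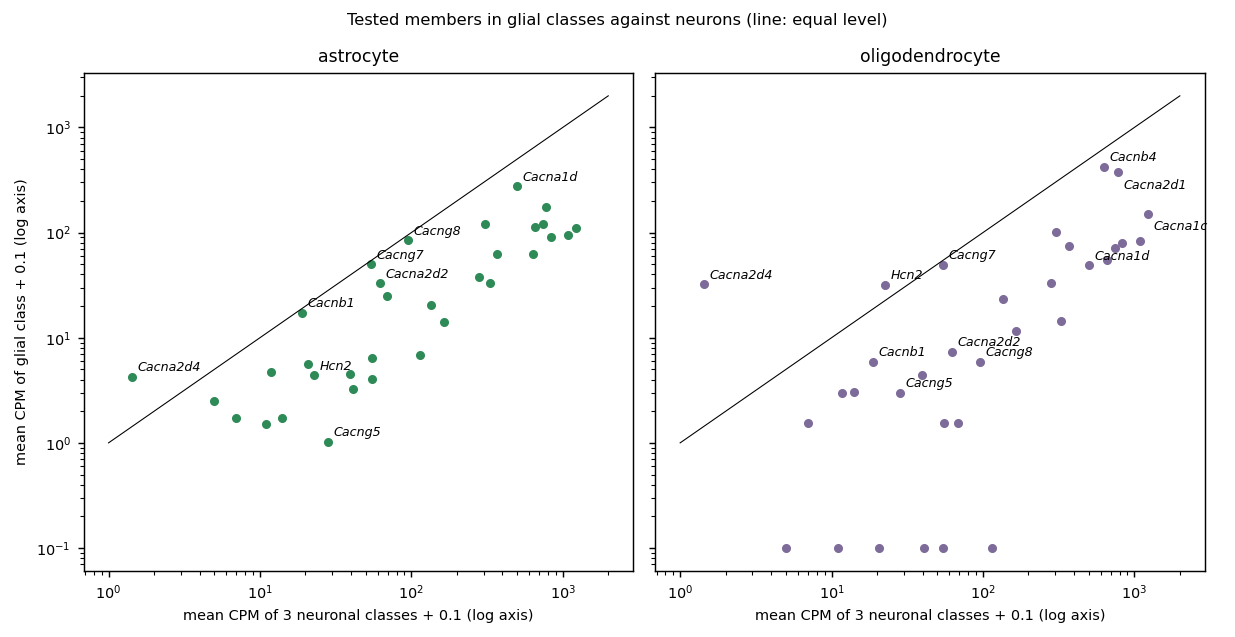
Mean CPM of 33 tested members in astrocytes (left) and oligodendrocytes (right) against the mean of the 3 neuronal classes, on log axes with 0.1 added, so that points at 0.1 are genes with 0 UMIs. *Cacng8*, *Cacng7* and *Cacnb1* lie near the line of equal level in astrocytes, and *Cacna2d4*, *Hcn2* and *Cacng7* lie near or above it in oligodendrocytes.

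Genes for partners of these channels were examined as a separate list of 28, of which 23 were tested. Between glutamatergic and GABAergic nuclei 6 were called (26.1%, against 17.6% of all genes), 3 in each direction. *Fgf13*, an intracellular modulator of sodium channels, was lower in glutamatergic nuclei (-1.84 ± 0.27, edgeR adjusted p = 9.04e-05), *Stac2*, an adaptor of calcium channels, was lower too (-1.11 ± 0.28, edgeR adjusted p = 0.00976), and *Stac3* was higher (1.69 ± 0.46, edgeR adjusted p = 0.0172). The *Stac3* call was lost with DESeq2 and the *Stac2* call after thinning. Between the GABAergic classes 4 were called (17.4%, against 9.1% of all genes). *Pex5l* (TRIP8b), which traffics HCN channels, was higher in *Foxp2*-rich nuclei (1.26 ± 0.25, edgeR adjusted p = 0.00305), where *Hcn2* was lower, and *Stac2* was also higher (1.14 ± 0.32, edgeR adjusted p = 0.0344). *Fgf13* (-1.54 ± 0.29, edgeR adjusted p = 0.00179) and *Stac* (-1.94 ± 0.39, edgeR adjusted p = 0.00348) were lower. The *Stac2* call was lost with DESeq2 and after thinning, and the *Stac* call after thinning.

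Against neurons, astrocytes were lower in 17 of the 23 partner genes and higher in 0 (73.9% called, against 54.3% of all genes, of which 26.7% were lower). With the block 18 passed, and 59.7% of all genes did. The declines of *Sptbn4* (-3.88 ± 0.23) and *Ank3* (-3.52 ± 0.28), scaffold genes of the axon initial segment, and of *Rimbp2* (-3.83 ± 0.23), which links calcium channels to the release site, were of the size seen for the channels themselves. With the block, 11 partner genes passed in the first comparison, where 24.4% of all genes did, and 10 in the second, where 15.3% did.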

How the data were processed

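The authors aligned reads of 10x 3' libraries with Cell Ranger 7.0.1 to mm10 and deposited, for each library, a matrix of unnormalized UMI counts. Whether intronic reads were counted is not given in the sources used here. Barcodes with more than 200 genes, under 20% mitochondrial and under 0.2% hemoglobin UMIs were kept (3772 and 4512 in libraries 2 and 3). The stated criterion on ribosomal UMIs, over 5%, was met by 10 and 35 barcodes and was left out. No doublet caller was run. Doublets were removed only by the exclusion genes of the gates, and a stricter gate was an alternative. Library 1 (819 barcodes, 1 *Foxp2*-rich) entered only as an alternative.

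Counts were summed per class and library (1442531 to 8398155 UMIs in the neuronal and astrocyte sums), and these 8 sums were fitted together with edgeR 4.0.16 in R 4.3.3 (TMM, filterByExpr, quasi-likelihood test), with Benjamini-Hochberg adjustment over 13052 genes and a threshold of 0.05. The standard error is the log2 fold change divided by the square root of F. Sums of 1 library come from the same brains, and their deviations from the class means correlated over genes (r 0.108 to 0.207). The fit was therefore repeated with the library as a block. Members whose calls the block changed are named, with block values for some of them. Partner genes with the block are given as counts only. On simulated counts for the first comparison (12342 genes), 55 of 95 genes with a log2 fold change of 1 and 95 of 98 with 2 were called, and 3 of 12149 unchanged genes. The simulated sums were drawn independently from a common profile, with changes only in the glutamatergic sums and no library effect. This setting is simpler than the data, so its rates need not hold for the calls above. DESeq2 1.42.0 was an alternative.

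Named were *Hcn* genes, tested *Scn* and *Cacna1* pore genes, and up to 12 called auxiliary genes with an absolute log2 fold change of at least 1, and up to 8 partner genes by the same size. *Fgf13* and *Stac3* were named outside the order by size. *Fam155a* (-3.52) and *Rims1* (-3.51), both called lower in astrocytes, came before them in that order. The members and lists were chosen with earlier results of these data known. Gene positions come from GENCODE vM21 (GRCm38), start regions from RefSeq. Some members are counted in the totals but not reported here by name.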

Additional observations from a re-analysis of the deposited data

Results flagged for a closer look

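Library 1 was outside all comparisons, since its gates held 42 glutamatergic, 1 *Foxp2*-rich, 6 other GABAergic and 6 astrocyte nuclei. It was looked at again because members were present there all the same: 34 of the 44 had more than 3 UMIs over its gated nuclei, which is above what a count of 0 allows. In its glutamatergic nuclei the members summed to 6996 CPM (2362 UMIs), against 9495 and 9465 CPM in libraries 2 and 3. The median depth of these nuclei was 6685 UMIs, against 15526 and 13115 UMIs. Their median share of *Slc1a2* and *Slc1a3* UMIs was 0.0819%, against 0.0127% and 0.0126%. All 6 astrocyte nuclei of library 1 held a UMI of a transmitter gene. The part of depth or of mixed RNA in the lower sum was not tested.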

How the results depend on the processing

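Of the members called, 3 of 14 (*Cacna2d2*, *Cacng5* and *Scn7a*) between glutamatergic and GABAergic nuclei, 1 of 8 (*Cacng5*) between the GABAergic classes and 23 of 29 between astrocytes and neurons were called under every alternative that could be fitted, and without the setting that adds library 1 these were 6, 3 and 28. No fold change of a called member was reversed. The 14 members of the first comparison became 9 after thinning to 1500 UMIs (30 tested) and 3 with library 1 added. The 8 of the second became 17 with the replicate block, 4 with DESeq2 and 2 with library 1 added. Of the partner genes, 6 became 11 with the replicate block and 0 with library 1, and 4 became 10 and 0. Library 1 adds sums of 1 to 42 nuclei. The cause of the changes was not tested. The counts against astrocytes stayed within 1.5 times. DESeq2 size factors and the absence of a quality filter left the counts of members at 14, 8 and 29. Leaving out a library leaves 1 sum per class and a ratio without a test, so that no count of calls could be had. Depth limits members under about 5 CPM in a class, and astrocyte levels rest on the shallowest nuclei of the 4 tested classes.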
